A study of Homo sapiens with 16 samples.

Results

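The comparison described here sets 2 lists of peaks named K512R-AS against 2 named WT-AS. They come from RIP-seq, the sequencing of RNA that is immunoprecipitated with a protein, here in H1299, an established line from a human lung carcinoma. Its cells carried a stable Myc-tagged PABPC1 in its wild-type (WT) form or in the K512R form, in which a lysine is replaced by arginine. By their names, all 4 lists come from cells given sodium arsenite (AS), which the labels' protocols put at 500 µM, so the pairs differ in the form of PABPC1. The sample record reads differently for all 4. It titles the lists named K512R-AS as input RNA of WT cells with arsenite, and those named WT-AS as input RNA of WT cells without it, so by the record the pairs differ in arsenite and neither is an immunoprecipitate. Which reading holds was not settled by the sources used here. Lists are called by their names below, and every result can be read either way. Joining the peaks of the 4 lists wherever they shared at least 1 bp on a strand gave 27663 regions. A region counted as lost where both WT-AS lists and neither K512R-AS list had a peak, and gained in the reverse case. There were 1387 lost and 1091 gained regions, together 2478 of the 27663. The labels do not say whether replicates were separate cultures, whether the stable lines were clones, or how much of the cells' own PABPC1 remained. Without gene names, the labels could not be checked against marker genes or the tagged gene. The spread between lists may therefore be technical.

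PABPC1 coats the poly(A) tails of cytoplasmic mRNAs, where it supports translation and guards the tail against shortening. Arsenite causes oxidative stress, which stops translation initiation on many mRNAs and gathers them with PABPC1 and other RNA-binding proteins in stress granules. SUMO is a small protein that is joined to lysines of its targets, so an arginine in place of a lysine cannot carry it at that position. By its title, the study asks how SUMO on PABPC1 bears on mRNAs held in stress granules.

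The WT-AS lists held 20309 and 21160 peaks, and the K512R-AS lists 19953 and 20971. These ranges overlapped, with means of 20734.5 ± 602 and 20462 ± 720 peaks (SD, n = 2 each). Peaks covered 6.95 and 7.15 Mb in the WT-AS lists and 6.70 and 6.98 Mb in the K512R-AS lists, again overlapping. Mean peak width was 342 and 338 bp in the WT-AS lists and 336 and 333 bp in the K512R-AS lists. Median width ran the other way, at 184 and 183 bp against 187 and 185 bp. In both of these the pairs did not overlap, but an exact 2-sided permutation test of 2 lists against 2 cannot give a p below 0.333. No list-level difference can pass 0.05 in this design. Peaks over 1000 bp numbered 1371 and 1365 in the WT-AS lists and 1235 and 1272 in the K512R-AS lists, so the K512R-AS lists held fewer of the widest peaks. The lists hold no read counts, so the depth behind them is unknown.

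**Figure D1:**
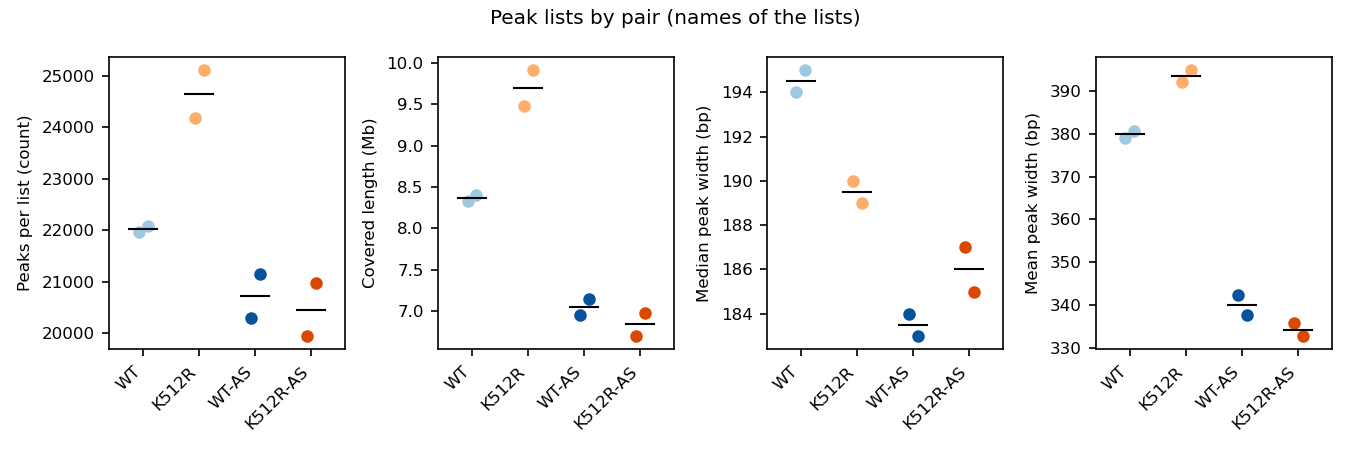
Peaks per list, covered length (Mb), median and mean peak width (bp) of all 8 lists, by the pairs their names give. Each point is 1 list and each bar the mean of a pair. The WT-AS and K512R-AS points overlap in peaks and covered length, and separate in median width (184 and 183 against 187 and 185 bp) and mean width (342 and 338 against 336 and 333 bp).

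Most regions found in both lists of a pair were also found in the other pair. Of the 27663 regions, 14396 had a peak in all 4 lists, 3678 in 3 lists, 4069 in 2 lists and 5520 in 1 list alone. The lost and gained regions made up 2478 of the 4069, and the rest had a peak in 1 list of each pair. Lost regions were 5.01% of all regions and 7.86% of the 17644 found in both WT-AS lists. Gained regions were 3.94% of all regions and 6.30% of the 17304 found in both K512R-AS lists. The excess of lost over gained regions depended on the lists and peaks used. Without the first K512R-AS list, 2143 regions were lost and 2664 gained, and with peaks scoring 100 or more the counts were 730 and 758. Leaving out any of the other 3 lists kept the excess, with 2975 lost and 1924 gained without the first WT-AS list, 2523 and 2076 without the second, and 2492 and 2319 without the second K512R-AS list. Each count with 1 list left out is far larger than in the full set, because fewer lists then have to agree. With all lists cut to equal length by score, 1315 regions were lost and 1168 gained.

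Lost and gained regions had low scores for the most part. The score is the authors' own value per peak, with no stated unit and many ties at 3100, so scores of different lists are given as values and not compared. The median score of lost regions was 37.13 in the first WT-AS list and 41.96 in the second, against 302 and 299.84 for regions in all 4 lists. Gained regions had median scores of 35.12 and 40.78 in the K512R-AS lists, where regions in all 4 lists had 289 and 344. A score of 100 or more in both lists was reached by 198 lost regions (14.3%) and 169 gained ones (15.5%). Of regions in all 4 lists, 60.7% reached it in every list. Regions just outside the rule, with a peak in both WT-AS lists and 1 K512R-AS list, numbered 1861 and had median scores of 53.73 and 55.31 in the WT-AS lists. Those in both K512R-AS lists and 1 WT-AS list numbered 1817, with median scores of 47.23 and 59.43 in the K512R-AS lists. The median width was 166 bp for lost regions, 186 bp for gained ones and 192 bp for those in all 4 lists.

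A small group of lost regions had a top score. A score of 3100 or more in both lists was held by 22 lost (1.59%) and 27 gained regions (2.47%). Of regions in all 4 lists, 10.2% held it in every list. Regions tied in score were ordered by width, so the first ones named are wide because of that order. Loci are named by hg19 coordinates, counted from 1, since no gene annotation of that build was used here. The first by score and width was chr16:2811562-2818262 on the plus strand, where both WT-AS lists had a single peak of 6701 bp with a score of 3100 and neither K512R-AS list had any. The same 6701 bp peak stood in 3 of the 4 lists named for untreated cells, namely both K512R lists and the second WT list. At chr19:2428163-2430950 (minus strand), a 2788 bp peak with a score of 3100 was present in every list of the series except the K512R-AS pair. On chromosome 12, chr12:49521567-49522721 (minus strand) had an 1155 bp peak with a score of 3100 in both WT-AS lists, the first WT list and both K512R lists. A second locus on the other strand of this chromosome, chr12:49666036-49667121, had a 1086 bp peak with a score of 3100 in both WT-AS lists and of 107.25 in the second K512R list. At these loci the peak had the same width in every list that called it, and its absence from the K512R-AS lists is the rule itself. Such uniformity was common, since 85.2% of lost regions with 1 peak in each WT-AS list had identical ends in both.

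Other lost regions were less uniform between lists. At chr19:36245467-36246476 (minus strand) the WT-AS peaks spanned 1010 and 908 bp and the only other list with a peak, the first K512R list, had 723 bp. The region chr10:102747293-102748151 (plus strand) scored 3100 in both WT-AS lists, over 831 and 859 bp. In the untreated lists its peaks spanned 1757 and 790 bp with WT and 1053 and 1918 bp with K512R, at scores of 206, 1996, 1095 and 163. At chr2:85825670-85826440 (minus strand), all 6 lists with a peak had the same 771 bp, and the scores were 3100 in both WT-AS lists and between 711 and 1498 in the untreated ones. The plus strand of chromosome 19 held 2 neighbouring lost regions, chr19:8467369-8467808 in no other list and chr19:8468297-8469317 in the second WT list as well. Short lost regions with a score of 3100 in both WT-AS lists and no peak elsewhere were chr4:666225-666308 (minus strand, 84 bp) and chr6:34211245-34211295 (plus strand, 51 bp).

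Among gained regions, the best-scoring one was also among the shortest. It lay at chr1:165723465-165723511 (minus strand, 47 bp), scored 3100 and 3136 in the K512R-AS lists and between 359 and 546 in all 4 untreated lists, and was absent from both WT-AS lists. At chr20:1145673-1148379 (plus strand) the K512R-AS peaks spanned 2547 and 2707 bp, and 3 untreated lists had peaks of 2505 to 2578 bp there, all scoring 3100. A 1920 bp peak at chr2:128603840-128605759 (minus strand) scored 3100 in both K512R-AS lists and 3098 in the second WT list, the only other list that had it. The region chr12:25357025-25357982 (plus strand) was in both K512R-AS lists, both WT lists and the first K512R list. For chr11:62439425-62440269 (plus strand), the first WT list was the only other one with a peak, and that peak was wider, at 1536 bp against 519 and 845 bp in the K512R-AS lists. Several top gained regions had no peak in any other list. These were chr19:2426114-2427044 (minus strand, 931 bp), chr10:102746027-102746732 (minus strand, 706 bp) and chr11:75114333-75114989 (plus strand, 657 bp). Gained regions with a peak in all 4 untreated lists included chr7:25164615-25164868 and chr16:53737516-53737742, both on the minus strand. A gained region can therefore be a peak that only the WT-AS lists lacked, or one that only the K512R-AS lists had.

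The widest lost regions after the one on chromosome 16 had weak to moderate scores. They were chrX:150573388-150577836 (plus strand, 4449 bp, scores of 30.87 and 46.86), chr3:88101177-88105594 (minus strand, 4418 bp, 36.17 and 18.27), chr6:13786821-13791096 (minus strand, 4276 bp, 37.5 and 77.21) and chr12:65856935-65860687 (plus strand, 3753 bp, 193 and 286). All 4 had a peak in both K512R lists named for untreated cells, and the last 2 in both WT lists as well. The widest gained regions were chr7:107258773-107263699 (plus strand, 4927 bp), chrX:148560295-148564749 (minus strand, 4455 bp), chr11:94800041-94804363 (plus strand, 4323 bp), chr14:54941202-54945076 (minus strand, 3875 bp) and chr1:85109710-85113290 (minus strand, 3581 bp). The ones on chromosomes X, 11 and 1 had a peak in all 4 untreated lists and those on chromosomes 7 and 14 in none. On chromosome X, the gained peak scored 31.54 and 136 in the K512R-AS lists and between 1394 and 2211 in the untreated ones.

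The lists named for untreated cells, which the rule did not use, held between 42.7% and 53.1% of the lost or gained regions. By the record these lists are the immunoprecipitates of WT cells without arsenite (named WT) and with it (named K512R). Of the 1387 lost regions, 592 (42.7%) and 596 (43.0%) had a peak in the WT lists and 658 (47.4%) and 683 (49.2%) in the K512R lists. Of the 1091 gained regions, 548 (50.2%) and 527 (48.3%) had one in the WT lists and 550 (50.4%) and 579 (53.1%) in the K512R lists. Lost regions were thus found more often in the K512R lists than in the WT lists. The K512R lists were also longer, with 24183 and 25111 peaks against 21979 and 22083, and regions in all 4 AS lists were likewise found more often there (85.3% and 86.4%) than in the WT lists (83.4% and 84.2%). The part of list length in the difference was not tested. A peak in all 4 untreated lists was seen for 392 lost (28.3%) and 341 gained regions (31.3%), and a peak in none for 519 (37.4%) and 324 (29.7%). Among regions in all 4 AS lists, 75.5% had a peak in all 4 untreated lists and 7.68% in none. Regions in all 4 AS lists also had higher scores, as given above, and the part of score in these differences was not tested. A peak in both WT lists and neither K512R list was seen for 18 lost regions (1.30%), 24 gained regions (2.20%) and 0.847% of regions in all 4 AS lists. The reverse, a peak in both K512R lists and neither WT list, was seen for 66 lost regions (4.76%), 25 gained regions (2.29%) and 1.68% of regions in all 4 AS lists.

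**Figure D2:**
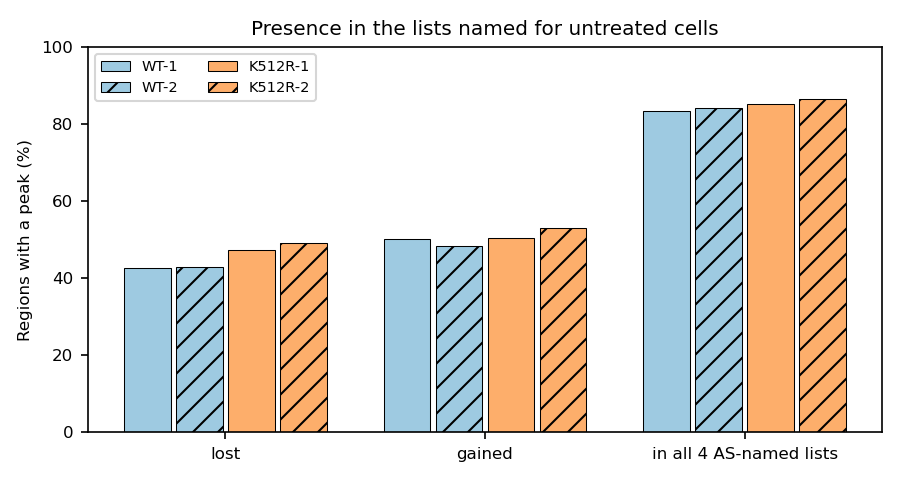
Share of regions (%) with a peak in each of the 4 lists named for untreated cells, for lost regions, gained regions and those in all 4 AS lists. Each bar is 1 list, and hatched bars are the second replicate. Lost regions reach 42.7% to 49.2%, gained ones 48.3% to 53.1% and regions in all 4 AS lists 83.4% to 86.4%.

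Some lost regions had a gained region beside them on the same strand. Within 2000 bp, 36 lost regions (2.60%) had a gained neighbour, while 0.931% of regions in all 4 lists had one. Another lost region was within this distance for 65 lost regions (4.69%) and for 1.33% of regions in all 4 lists. A gained neighbour was thus no more frequent than a lost one, and these differences were not tested. The 36 lost regions formed 36 pairs with 35 gained regions. The gap between the partners ran from 14 to 1596 bp with a median of 348 bp. The gained partner lay on the 3' side of the lost one in 20 pairs and on the 5' side in 16. The widest pair was on the minus strand of chromosome 19. There the 2788 bp peak at chr19:2428163-2430950 was missing from the K512R-AS lists, and peaks of 931 and 634 bp appeared 1118 bp to its 3' side, at chr19:2426114-2427044, all scoring 3100. In the next pair, on the minus strand of chromosome 4, a 729 bp lost region at chr4:159631094-159631822 (scores of 1267 and 1266) stood 117 bp from a 698 bp gained one at chr4:159630279-159630976 (1659 and 1367). The other pairs among the first 5 by width were chr21:37432645-37433116 with chr21:37431847-37432559 (minus strand, 85 bp apart), chr9:34664632-34665187 with chr9:34665610-34666046 (minus strand, 422 bp) and chr8:145134359-145135052 with chr8:145135145-145135551 (plus strand, 92 bp).

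The untreated lists differed between these pairs. In 10 of the 36 pairs, the lost region had a peak in all 4 untreated lists and the gained one in none, so that 6 lists had one peak and the K512R-AS lists another. A lost region in all 4 untreated lists is no trait of these pairs, since 28.3% of all lost regions had this. The opposite, with the gained region in all 4 untreated lists and the lost one in none, held in 3 pairs. The 10 were chosen after their values were seen. Besides those on chromosomes 19 and 4 they were lost regions at chr11:75115716-75116111, chr6:43471361-43471731 and chr1:226250408-226250512 on the plus strand. On the minus strand they were chr16:47007406-47007625, chr22:38668505-38668670, chr15:85234766-85234875, chr6:33545575-33545685 and chr7:6226681-6226747. At chr11:75115716-75116111 both partners scored 3100 in both lists that held them, and the gained peaks at chr11:75114333-75114989 lay 726 bp to the 5' side. The gained partner was on the 3' side in 4 of the 10 and on the 5' side in 6.

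**Figure D3:**
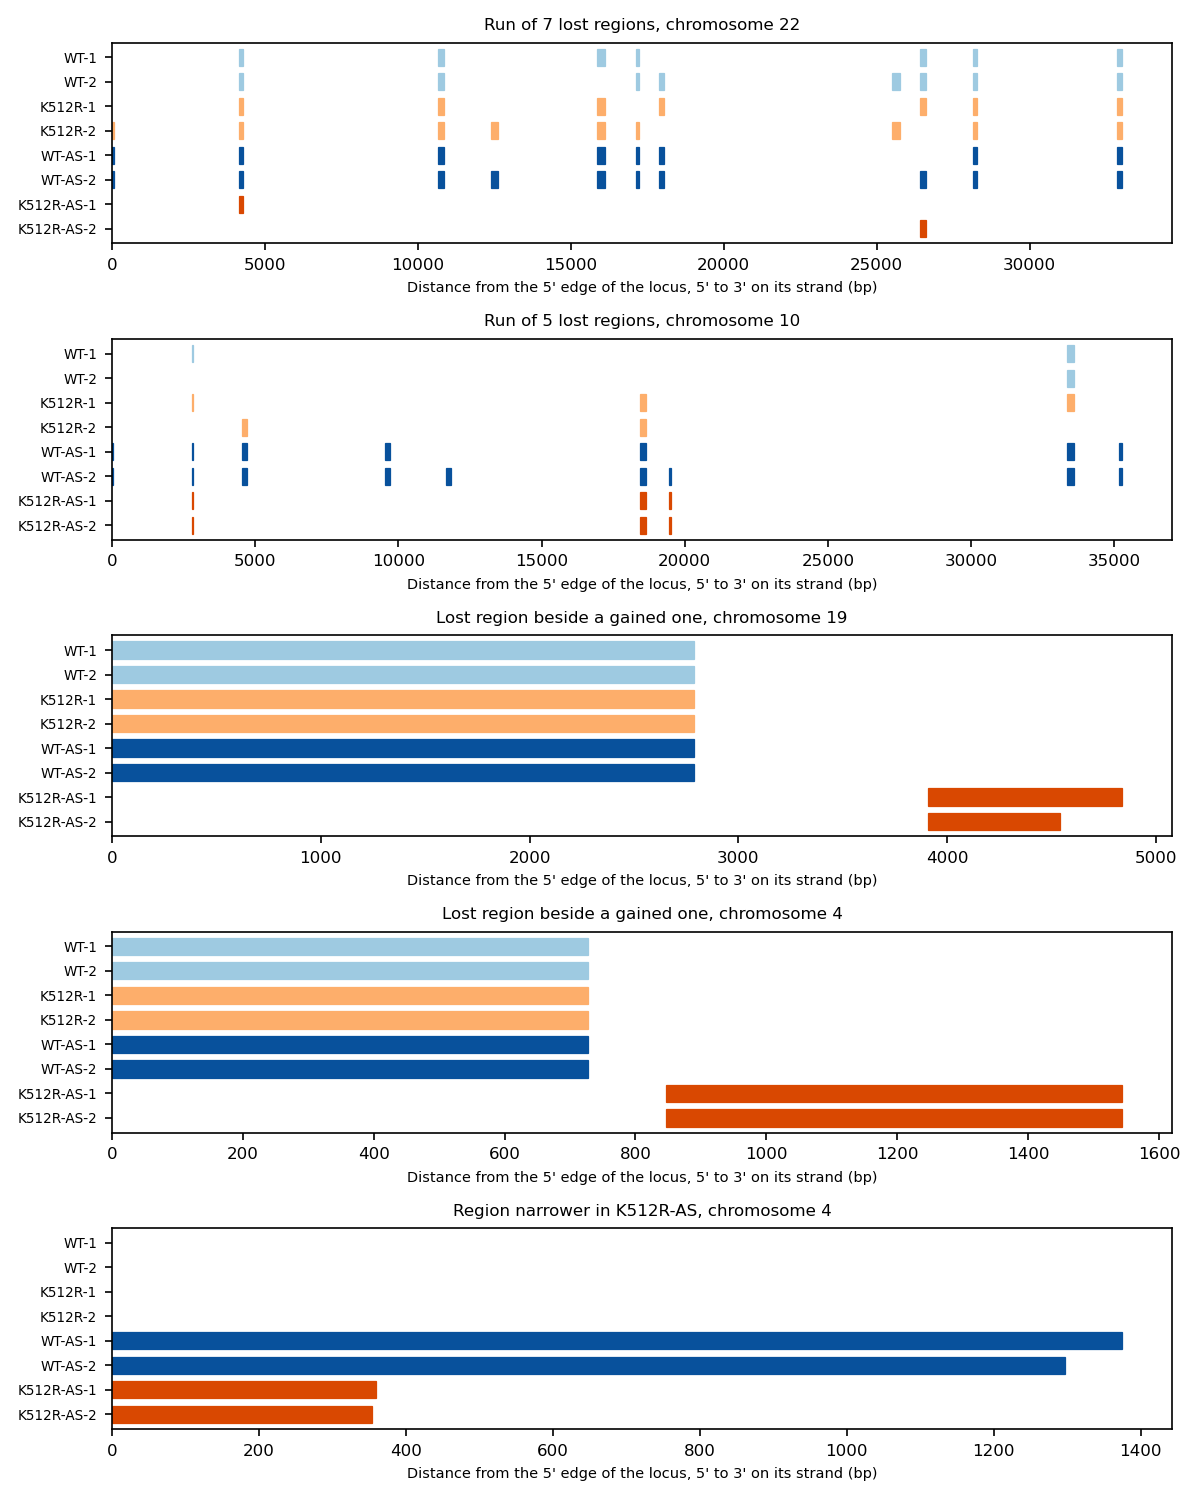
Peaks of all 8 lists at 5 loci, drawn to scale from the 5' to the 3' edge of the locus (bp), with a bar for each peak and a row for each list. In the runs on chromosomes 22 and 10 the K512R-AS rows lack most WT-AS peaks, which the rule fixes for the lost regions. In the pairs on chromosomes 19 and 4 the K512R-AS lists have a peak 1118 and 117 bp downstream of the one in the 6 other lists, and in the last panel their peak is shorter (361 and 355 bp against 1375 and 1298 bp).

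Lost regions lay near each other more often than gained ones did. Another lost region was within 50000 bp on the same strand for 428 of the 1387 lost regions (30.9%), and for 16.4% of regions in all 4 lists. The corresponding values for gained regions were 187 of 1091 (17.1%), and 12.2% of regions in all 4 lists had a gained neighbour. There are more lost than gained regions, which by itself gives them more neighbours of their kind, and the difference was not tested. Gained regions were also more often alone, with no other region of any kind within 50000 bp for 15.4% of them, 8.44% of lost regions and 7.27% of regions in all 4 lists. Chains of lost regions with steps of at most 50000 bp numbered 189 with 2 or more members and 38 with 3 or more, against 88 and 9 chains of gained regions. When only peaks scoring 50 or more were joined, 226 of 951 lost and 116 of 864 gained regions were in such chains. These sets were rebuilt from the stronger peaks and are not parts of the chains above. Of all lost and gained regions in the full set, 26.7% and 26.0% scored 50 or more in both lists.

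**Figure D4:**
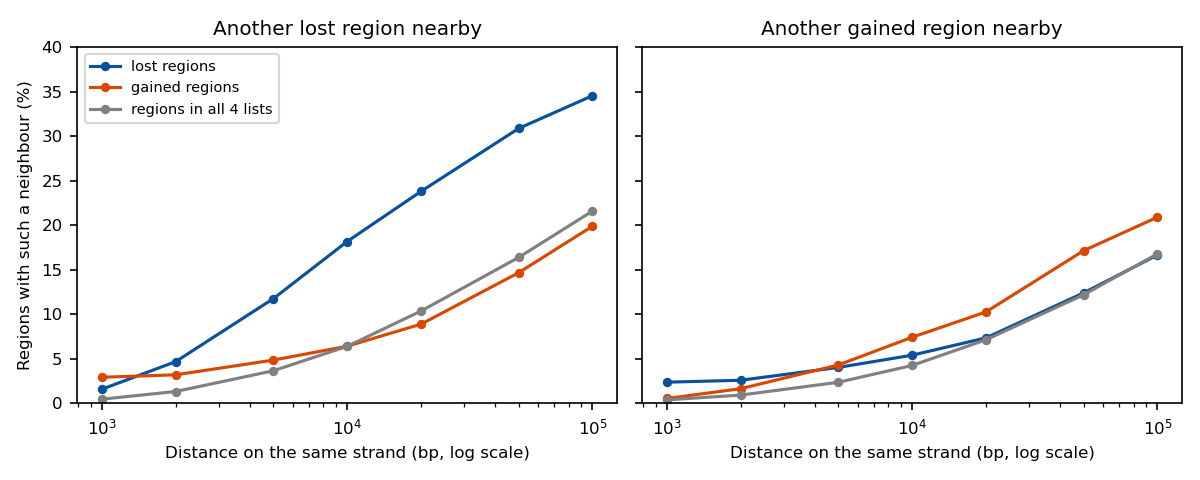
Share of regions (%) with another lost region (left) or another gained region (right) within a given distance on the same strand (bp, log scale). Lines are lost regions, gained regions and regions in all 4 lists. At 50000 bp, 30.9% of lost regions have another lost one, 16.4% of regions in all 4 lists do, and 17.1% of gained regions have another gained one.

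The longest chain held 7 lost regions over 33011 bp on the minus strand, chr22:29730254-29763264. Its members were 69 to 249 bp wide and scored from 13.99 to 126.56 in the WT-AS lists. No region in this span was in all 4 lists, 3 further regions were in some of them, and each K512R-AS list had 1 peak there. Of the 7 members, 5 had a peak in each of the WT lists and the first K512R list and 6 in the second K512R list. The absence of these members from the K512R-AS lists is the rule itself, while each untreated list had most of them. The next chain had 5 lost regions at chr10:70497602-70532856 (plus strand), with scores of 17.02 to 174.65. It also held 2 regions present in all 4 lists, and each untreated list had a peak at 1 of the 5 members, so this chain was mainly seen in the WT-AS lists. At chr22:36892014-36920779 (minus strand) 4 regions were lost, among them chr22:36919942-36920027, which scored 1652 and 1336 in the WT-AS lists and had a peak in all 4 untreated lists. The chain of 4 at chrX:134866214-134887401 (plus strand) had members of 239, 175, 239 and 175 bp in order, a repeated pattern. Whether these are copies of one sequence was not analysed here, and reads from near-identical copies can be placed on either.

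Chains of gained regions had fewer members. The longest had 5 members over 116503 bp at chr14:31058589-31175091 (plus strand), with scores of 13.03 to 56.5, beside 3 regions present in all 4 lists. The first WT list had a peak at 1 of the 5, and the other untreated lists at none. Of the chains of 3, chr19:607964-613488 (plus strand) had all members in all 4 untreated lists, so that the WT-AS lists alone lacked them. At chr6:88344563-88374577 and chr2:173451006-173460908 (both plus strand), 1 member each had a peak in 1 untreated list.

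Regions with a peak in all 4 lists give a measure that the rule did not use, the width of the peak. In 11674 of the 14336 such regions with a single peak per list (81.4%), both ends were identical in all 4 lists. Of all 14396 regions, 693 (4.81%) were narrower in both K512R-AS lists than in both WT-AS lists, and 229 (1.59%) were wider. Narrower regions outnumbered wider ones whichever list was left out, with 953 against 628 without the first WT-AS list, 1060 against 539 without the second, 1372 against 450 without the first K512R-AS list and 1332 against 404 without the second. The median change was 65.5 bp for narrower and 65 bp for wider regions. Narrowing was more frequent in wide regions. Among the 1018 regions over 1000 bp, 239 were narrower (23.5%) and 36 wider (3.54%), while of the 7444 regions of up to 200 bp only 23 were narrower and 17 wider.

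The change was mostly at the 3' end. In both K512R-AS lists the 3' end was shorter than in both WT-AS lists in 485 regions (3.38%) and longer in 106 (0.739%). The 5' end was shorter in 214 regions (1.49%) and longer in 124 (0.865%). The median size of the 3' shortening was 68 bp, and it exceeded 100 bp in 190 regions and 500 bp in 28, while 2 of the longer 3' ends exceeded 500 bp. Shortening at the 3' end outnumbered lengthening whichever list was left out, although the counts rise when fewer lists have to agree. They were 640 against 303 without the first WT-AS list, 722 against 251 without the second, 879 against 225 without the first K512R-AS list and 864 against 207 without the second.

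The same measure in the untreated lists did not lean this way. In 10781 regions with a single peak in each of the 8 lists, the 3' end was shorter with K512R-AS than with WT-AS in 332 and longer in 81. Among the same regions it was shorter in the K512R lists than in the WT lists in 128 and longer in 164. The 5' end was shorter in 155 and longer in 98 in the AS lists, and shorter in 102 and longer in 127 in the untreated lists. These are counts over regions of 2 comparisons that use no list in common, and their difference was not tested. The place of these ends in transcripts was not analysed here.

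In 12 regions the summed peak width in both K512R-AS lists was at most 50% of that in both WT-AS lists, and the reverse held in 1. These were chosen after their values were seen. At chr4:103999538-104000912 (minus strand) the peak spanned 1375 and 1298 bp in the WT-AS lists and 361 and 355 bp in the K512R-AS lists. This peak was weak, with scores of 17.51 and 43.69 in the WT-AS lists and 62 and 21.56 in the K512R-AS lists. The lowest score in each list was 13.02. At chr12:13138934-13140266 (minus strand) it went from 1237 and 1333 bp to 377 and 498 bp, and at chr11:8707225-8711392 (plus strand) from 4031 and 4168 bp to 1853 bp in both. The single region that widened as much was chr19:10206658-10207274 (minus strand), with 235 and 246 bp in the WT-AS lists and 617 bp in both K512R-AS lists. In these 4 loci the widths within a pair lay closer together than the pairs did. This was not so at chr2:242089493-242089962 (plus strand), another of the 12, with 470 and 226 bp in the WT-AS lists and 84 bp in both K512R-AS lists.

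**Figure D5:**
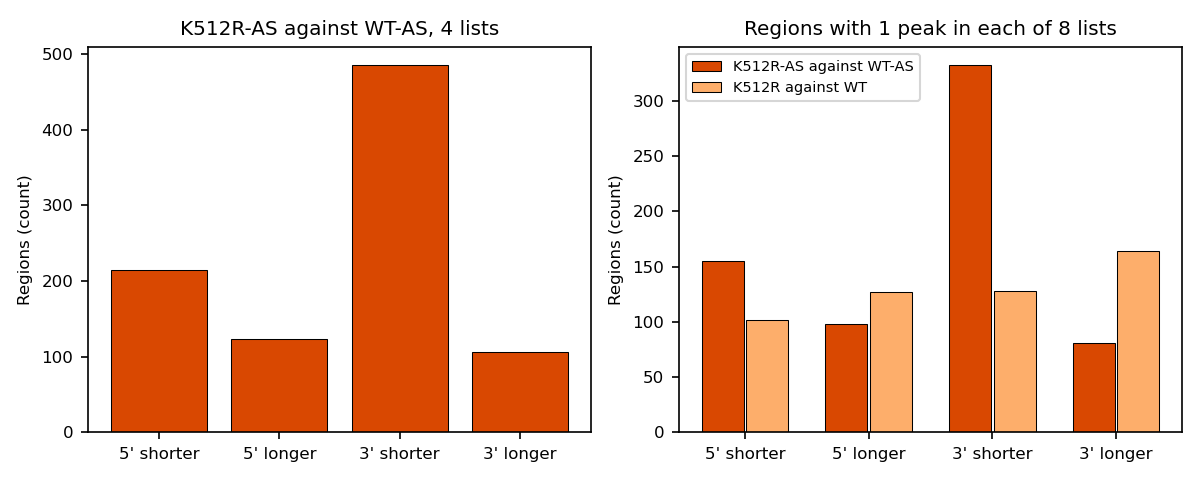
Number of regions whose 5' or 3' end is shorter or longer in both K512R lists of a comparison than in both WT lists. Left, the 4 AS lists, with 214 and 124 regions at the 5' end and 485 and 106 at the 3' end. Right, regions with 1 peak in each of the 8 lists, for the AS lists (332 shorter and 81 longer at the 3' end) and the untreated lists (128 and 164).

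Lost and gained regions were spread over all 24 chromosomes. The lost share of a chromosome's regions ran from 2.78% on chromosome 21 (8 of 288) to 6.86% on chromosome 22 (44 of 641). The gained share was lowest on chromosome 17, at 2.64% (34 of 1286), where 78 regions (6.07%) were lost. Chromosome 22 had 18 gained regions (2.81%), and its 2 chains described above hold 11 of its 44 lost regions. Gained regions outnumbered lost ones on chromosomes 4, 14 and 21, with 43 against 41, 48 against 39 and 13 against 8. No error over chromosomes is given, as neighbouring regions are not independent. The plus strand held 719 of the lost and 554 of the gained regions, and 51.8% and 50.8% are close to the 51.0% of regions in all 4 lists.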

How the data were processed

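Per the labels' protocols, RNA was pulled down with an anti-Myc antibody from H1299 cells and depleted of ribosomal RNA. The build hg19, the aligner HISAT2 2.0.4 and the trimmer cutadapt 1.9.3 are named in the submitters' processing notes. The lists used here are 1 per sample, deposited by the authors with a start, an end, a strand and a score for each peak, and peak names begin with MACS, so some version of that caller was used. For its version, control, threshold and strand assignment, nothing is stated in those sources. No peak passed a chromosome's end in hg19, and 14 of 24 chromosomes had one in hg38.

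Of 16 samples, the 8 with a list were used, and 8 titled K512R were not analysed here. Groups in the sample record follow the titles. The names of 6 of the 8 lists, among them all 4 compared, give another condition than the title.

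Regions, neighbours and peak ends were computed from the deposited peak positions with pandas 2.3.3 and numpy 2.4.6 under Python 3.11.15 (figures with matplotlib 3.10.9), and the coding of the rule was tested on simulated peaks. A chain joins lost or gained regions up to 50000 bp apart on a strand. Named regions are the 8 best by the poorer score percentile of the 2 lists (ties by width), the 5 widest, the 4 longest chains, the 5 widest lost and gained pairs, and the 3 best with a peak in all or none of the untreated lists, of lost and of gained regions. Members and rules were chosen with earlier results of these data known. Planned tests of U content, gene lists and cell markers were not run, as no genome or annotation of hg19 was used here, and no sequence is printed for that reason. Alternatives covered score minimums, equal list lengths, overlap, gaps, strand, the lists joined, the presence rule and each list left out.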

Additional observations from a re-analysis of the deposited data

Results flagged for a closer look

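Peak width differed between the names K512R and WT in opposite directions in the AS-named lists and in those named for untreated cells. By the record, both compare WT cells with arsenite against those without, the AS-named lists in input RNA and the others in immunoprecipitates. Median width was 2.5 bp higher in the K512R-AS lists than in the WT-AS lists. The K512R lists named for untreated cells were lower than the WT lists by a mean difference of -5 bp. Mean width showed the opposite turn, at -5.78 bp in the AS-named lists and 13.62 bp in the others. In each case every list of one pair lay beyond every list of the other, and the difference between the comparisons was not tested.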

How the results depend on the processing

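The lost and gained counts come from no test, so a replicate block could only be applied to the rule itself. Requiring the change in both replicate numbers is the same condition as the rule, so it must return the 1387 lost and 1091 gained regions and checks nothing. A replicate block of number 1 alone gives 3994 and 3629, and of number 2 alone 4057 and 3866. Same-numbered lists of the 2 pairs had Jaccard indices of 0.6813 and 0.6830, where 1 means identical sets of regions. Differently numbered lists had 0.6811 and 0.6696. The 2 replicates within a pair had 0.7422 for WT-AS and 0.7346 for K512R-AS. The numbers are not stated to mark a shared culture or day. With 1 peak of 2 enough for presence, 4107 regions were lost and 3891 gained. Joining only peaks that scored 100 or more gave 730 lost regions, a set rebuilt from those peaks and not a part of the 1387. Of the 1387, 198 scored 100 or more in both WT-AS lists. With 1 list left out, lost regions numbered 2143 to 2975 and gained ones 1924 to 2664. Gained neighbours of lost regions numbered 56 within 5000 bp and 75 within 10000 bp. Chains within 20000 bp held 112 gained regions. Chains within 50000 bp rebuilt from peaks scoring 50 or more held 226 lost and 116 gained ones. Shifts over 20 bp left 286 shorter and 59 longer 3' ends. With 1 list left out, 953 to 1372 regions were narrower and 404 to 628 wider, and between 640 and 879 had a shorter 3' end, with 207 to 303 having a longer one. The difference in peaks per list, -272.5, ran from -781.5 to 236.5. The alternatives on the end shifts, on widths and on gained chains, and the score minimum for lost chains, were chosen after seeing the data. Joining over 8 lists, gaps of 100 or 1000 bp, ignoring strand, 50% coverage of a peak and equal list lengths kept lost and gained counts within 1.5 times of those given. Depth is unknown, so an absent peak can be one that was not called.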
